A study of Mus musculus with 2 samples.

Results

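Adventitial fibroblasts, the collagen-rich stromal cells of the connective tissue sleeve around larger vessels and airways, were examined in lungs after a sham operation and after hepatic ischemia-reperfusion (HIR, an injury of the liver by interrupted and resumed blood flow). RNA of dissociated lung cells was captured in droplets (10x Genomics) and sequenced cell by cell. The labels describe both libraries as primary lung cells of Wild type mice, the sham library after Sham surgery and the HIR library 6 hours after the liver injury. Each group is 1 library, and the age of the animals and the number pooled are not given in the sources used here. The labels name the mouse and the build mm10, but every feature of the deposited tables carries a rat Ensembl identifier, so symbols are printed as those tables spell them.

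Members were selected on raw counts of unique molecular identifiers (UMIs, each standing for 1 captured transcript). A barcode needed at least 200 genes, at most 20% mitochondrial UMIs, no UMI of Ptprc (the leukocyte antigen CD45) and no UMI of Cdh5 (VE-cadherin of endothelium). Its UMIs of Pi16, Sfrp2 and Ccl11 together had to reach 3 and to be no fewer than those of Cxcl14, Tcf21 and Hsd11b1 (alveolar fibroblast genes) and those of Wnt11, Krt76 and Lum. This took 347 of the 18031 kept barcodes, out of 20218 deposited. There were 234 members among 9438 sham barcodes and 113 among 8593 HIR barcodes. The members held 1909595 and 760186 UMIs, with a median of 6064.5 (sham) and 5908 (HIR) UMIs per member. The 11 genes of the rule are left out of the comparisons of gene levels below. Where rule sums or the leading rule gene are given for both libraries, they are a description.

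Fibroblasts with Pi16 and Dpt occur in many organs and are often called universal fibroblasts. In the lung they lie in the cuff that vessels and airways share, where they lay down fibrillar collagen and elastic fibres. They are a source of chemokines that draw eosinophils and monocytes and of interleukin 33, an alarmin read by type 2 lymphocytes. Fibroblasts also carry the glucocorticoid receptor, a transcription factor that adrenal steroids switch on.

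The other fixed markers were detected in most members. Col1a1, a chain of type I collagen, was detected in 97.4% of sham and 98.2% of HIR members. Its per-cell level, in CPM (UMIs of the gene per 1000000 UMIs), ran from 0 over a median of 17401 to 99316 in sham and from 0 over 13008 to 76783 in HIR. The proteoglycan Ogn was detected in 91.0% and 91.2% of members, and Serpinf1, which encodes the anti-angiogenic factor PEDF, in 82.5% and 84.1%. In barcodes with Ptprc, which should lack these genes, Ogn was detected in 3.24% and 1.57% and Serpinf1 in 1.93% and 0.895%, at median depths of 5490 and 4982.5 UMIs in sham and HIR. Just inside the rule, the 9 sham and 5 HIR barcodes with a rule sum of 3 had Col1a1 in 55.6% and 80.0% of cases. Just outside it, the 18 and 16 barcodes with a sum of 2 had it in 55.6% and 43.8%.

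Not every member fitted the label. In 16 sham and 6 HIR members over 1% of UMIs lay in the epithelial, leukocyte or erythroid marker list, or no Col1a1 UMI was found. The endothelial list passed 1% in none. These 22 barcodes are called other-cell barcodes below, a group set after the data were seen, and 3 of the 16 and 3 of the 6 were called doublets. Among sham members they accounted for 28.5% of UMIs, and among HIR members for 14.0%. Most of this came from 3 sham and 1 HIR barcode with 40.5 to 66.0% of UMIs in Scgb1a1, the secretory product of airway club cells. These 4 held 75942 to 164122 UMIs each and at most 3 Col1a1 UMIs. In all 12 epithelial markers the summed level was 137280 CPM in sham and 42629 CPM in HIR, and 775 and 687 CPM without the other-cell barcodes. The 19 leukocyte markers summed to 1832 and 4158 CPM, and to 336 and 718 CPM without them. Of the smooth muscle markers 2 of 15 were at 0 in sham and 4 in HIR, of the mesothelial markers 3 of 9 in each library, and of the Schwann cell markers 3 and 5 of 7. The libraries shared 24 barcode sequences, and none was a member in both.

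Set beside the classes built by mirrored rules, the members had more collagen and retinoid-carrier RNA and less contractile RNA. The alveolar class (Cxcl14, Tcf21 and Hsd11b1 leading; 558 sham and 322 HIR barcodes) held type 2 pneumocytes, so the 446 and 239 barcodes without Epcam and with at most 1% of Sftpc UMIs were used. The class led by Wnt11, Krt76 and Lum held 1204 and 707 barcodes. Serpinf1 stood at 910.1 and 1171 CPM (sham and HIR) in members, 96.6 and 225 CPM in the alveolar class and 65.7 and 82.4 CPM in the Wnt11 class. Rbp4, the plasma carrier of retinol, stood at 1221 and 789 CPM in members, against 239.6 and 261 CPM in the alveolar class and 106 and 63.2 CPM in the Wnt11 class. Col15a1, a basement membrane collagen of adventitia, was at 217 and 299.9 CPM in members and at most 68.9 CPM in the other classes. Col14a1, a fibril-associated collagen, was at 166 and 160.5 CPM in members and at most 37.0 CPM in the others, and the membrane protein Itm2a at 245 and 288 CPM against at most 90.4 CPM. The rule for naming also brought up Fam183a, Lypd2, Dynlrb2 and Cyp2f4, genes of ciliated and club cells. Without the other-cell barcodes these 4 were at 0.732 CPM or less in members, as for Dynlrb2 and Cyp2f4 in sham.

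Genes of contractile and pericyte-type cells lay below both classes. Tagln, an actin-binding protein of smooth muscle, was at 191 and 103 CPM in members but 4158 and 2659.8 CPM in the Wnt11 class. The alveolar class was nearer, with 903 and 1094 CPM of Tagln. Higd1b, a pericyte gene, was at 2.62 and 1.32 CPM against 348 and 149 CPM in the Wnt11 and 102 and 90.4 CPM in the alveolar class. No UMI of the matrix glycoprotein Tnc was counted in sham members (5.26 CPM in HIR). The Wnt11 class had 83.2 and 41.9 CPM of Tnc and the alveolar class 80.8 and 37.0 CPM. These orders describe the classes, since all of them were cut from the same counts.

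Members made up a smaller share of the HIR library. They were 2.48% of kept sham barcodes (exact binomial 95% interval 2.18 to 2.81%) and 1.32% in HIR (1.08 to 1.58%), a ratio of 0.530 (0.425 to 0.663). Intervals here and below cover counting error only, and with 1 library per group no test was made. The alveolar rule had a ratio of 0.634 and the Wnt11 rule 0.645, so all 3 stromal classes were smaller shares in HIR. Among barcodes of the 3 rules, members were 11.7% in sham and 9.89% in HIR, with a ratio of 0.844 (0.683 to 1.04) whose interval holds 1. The median rule sum was 24 UMIs in sham and 16 in HIR members. Members are selected on this sum, so it is a description, and its part in the smaller share was not tested. After every barcode was thinned to 1000 UMIs, the shares were 2.14% and 0.884%. As a measure outside the rule, Serpinf1, Mfap5 and Clec3b together reached 3 UMIs in 95.3% of sham and 94.7% of HIR members. All barcodes without Ptprc and Cdh5 that reached this sum were 19.9% of kept sham and 9.40% of kept HIR barcodes. Their ratio was 0.473 (0.437 to 0.510), so this wider set was also a smaller share in HIR. Members were 11.9% and 13.2% of it. This set too is cut by a UMI sum, and levels of its genes differed between libraries in the other classes. In the Wnt11 class the log2 ratios of HIR over sham were -1.20 for Clec3b, -0.95 for Mfap5 and 0.29 for Serpinf1. In the alveolar class they were -0.81, -0.10 and 1.14. The part of these levels in the smaller share was not tested.

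**Figure D1:**
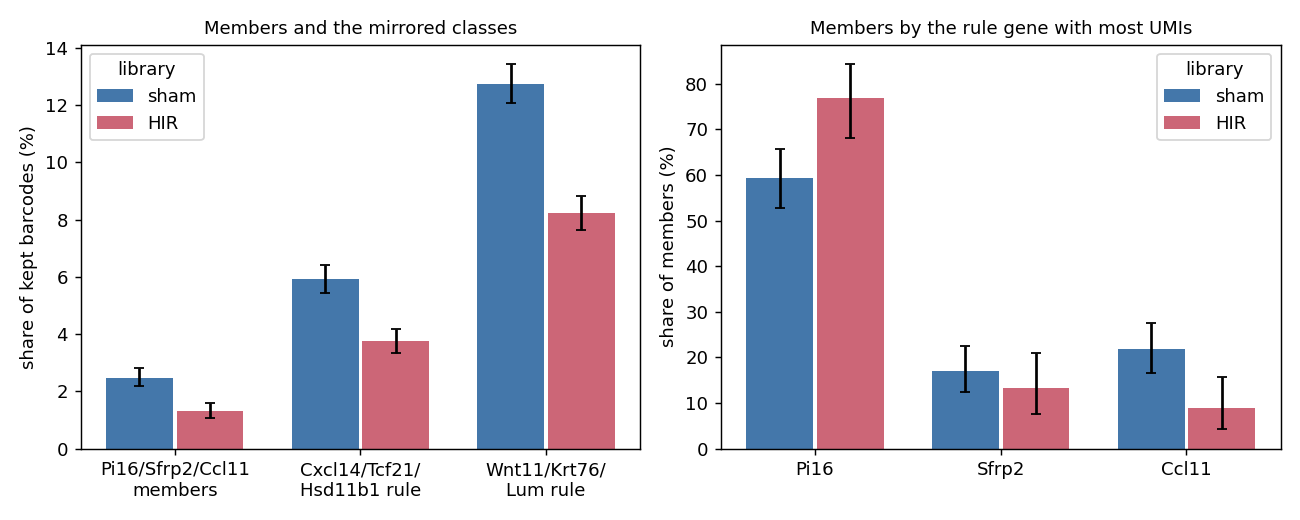
Left, share of kept barcodes (percent, linear axis from 0) for the members and for the 2 mirrored rules in each library. Right, share of members whose highest rule gene was Pi16, Sfrp2 or Ccl11; error bars are exact binomial 95% intervals. All 3 classes are lower in HIR, and Pi16-led members take 77% of HIR members against 59.4% in sham.

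The members were not uniform. Pi16 had the most UMIs of the 3 rule genes in 139 of 234 sham members (59.4%) and 87 of 113 HIR members (77%). Sfrp2 led in 40 and 15, Ccl11 in 51 (21.8%) and 10 (8.85%), and 4 and 1 were tied. The split uses the rule genes, so these counts and the genes below are a description; other-cell barcodes were left out of the levels. Pi16-led members carried Wif1, a secreted Wnt antagonist, at 381 and 386 CPM (sham and HIR), against 16.6 and 0 CPM in Sfrp2-led members. Notum, an enzyme that inactivates Wnt proteins, was at 42.5 and 120.4 CPM in Pi16-led members and had no UMI in the other subsets. Entpd1 (CD39, which removes extracellular ATP), Cd55 (a complement brake) and Ltbp2 (a microfibril protein) were also highest there.

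Sfrp2-led members had the most of the water channel Aqp1 (485 and 521 CPM, against 124 and 71.4 CPM in Pi16-led members). Complement C3 was at 154 and 557 CPM in Sfrp2-led and at 1.25 and 2.04 CPM in Pi16-led members. Ccl11-led members had the most of Aldh1a3, a retinoic acid synthase (258 and 319 CPM), and of the monocyte chemokine Ccl2 (323 and 292 CPM). The Wnt antagonist Sfrp1 was at 231 and 624 CPM in them, and Efemp1, an elastic fibre protein, at 673 and 1022 CPM. Wnt antagonists thus differed by subset, with Wif1 and Notum in Pi16-led and Sfrp1 in Ccl11-led members. Only 9 Ccl11-led HIR members remain after other-cell barcodes are left out.

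**Figure D2:**
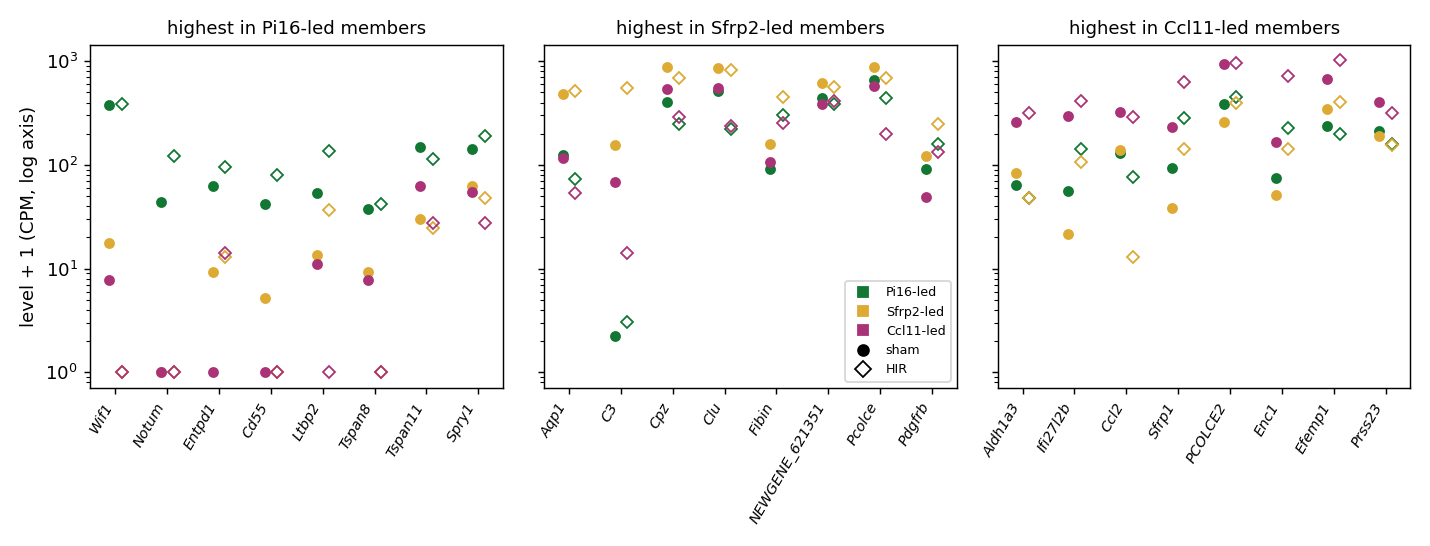
Level plus 1 (CPM, log axis) of the 8 genes highest in each subset over both others, by subset (colour) and library (filled circle sham, open diamond HIR), without other-cell barcodes. Wif1 is at most 16.6 CPM and Notum at 0 outside Pi16-led members, and C3 is at most 2.04 CPM in Pi16-led members.

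For the comparison of libraries, UMIs were summed per gene over members and expressed as CPM. Each log2 ratio uses CPM values plus 10, and genes with a mean of at least 20 CPM were tested. Of 4895 such genes, 182 (3.72%) were over 2-fold higher in HIR and 97 (1.98%) over 2-fold lower, with a median log2 ratio of 0.11. In all, 3000 (61.3%) were higher by any amount and 1895 lower, beside which the counts of higher and lower list genes below stand. Scaling by TMM factors moved this median to 0.00 and the share of higher genes among those over 2-fold apart from 65.2% to 51.3%. Without other-cell barcodes, 5015 genes were tested, 137 (2.73%) were over 2-fold higher and 91 (1.81%) lower, with a median of -0.01 and 49.1% higher by any amount. Small differences of named genes, such as those of Aldh2, Mfap5, Prelp and Igfbp7, turned direction without these barcodes. The medians of the 10 lists recomputed with TMM scaling kept their sign. The counts are differences between these 2 libraries, and no spread between animals is known.

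Glucocorticoid-induced genes were higher in HIR as a group. Of 25 listed genes 20 were tested, 18 of 20 were higher and 10 over 2-fold higher (none over 2-fold lower), and the median log2 ratio was 1.0 (1.06 without other-cell barcodes), beside 0.11 and 61.3% higher over all tested genes. The list was chosen with results of these data known. Tsc22d3 (GILZ, a mediator of anti-inflammatory steroid action) was at 855 CPM in sham and 2634 CPM in HIR, 3.08-fold higher (2.88 to 3.29). Its log2 ratio was 1.61 in all members and 1.38 without other-cell barcodes. The per-cell median of Tsc22d3 was 826 CPM in sham and 2369.7 CPM in HIR, and the sham upper quartile, 1389 CPM, lay below the HIR lower quartile, 1468 CPM. Cebpd, a transcription factor of acute responses, was at 327 CPM in sham and 1118 CPM in HIR, 3.42-fold higher (3.08 to 3.79). It was 2.87-fold higher without other-cell barcodes. Its per-cell quartiles were also apart, the sham upper quartile at 619 CPM and the HIR lower quartile at 674 CPM.

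Angptl4, an inhibitor of lipoprotein lipase, was at 6.81 CPM in sham and 107 CPM in HIR, 15.7-fold higher (8.66 to 30.7). Glul (glutamine synthetase) stood at 108 and 387 CPM in sham and HIR, 3.59-fold higher, and Errfi1, a brake on the EGF receptor, at 46.1 and 179 CPM, 3.88-fold higher. Fkbp5, a chaperone that restrains the glucocorticoid receptor, was low in both libraries at 17.8 and 75 CPM and 4.21-fold higher. Sult1a1 (a sulfotransferase) was 3.17-fold higher, Ddit4 (an inhibitor of mTORC1) 2.55-fold higher, Klf15 (a metabolic transcription factor) 2.40-fold higher and Nfkbia (the inhibitor of NF-kB) 2.26-fold higher. Dusp1, a phosphatase of stress kinases and the most abundant gene of the list in sham, differed less, at 995 and 1367 CPM. The lower members were Rasd1, with 43.5 and 31.6 CPM, and Ucp2, with 40.3 and 25 CPM, and both were under 2-fold apart. The receptor gene Nr3c1 was at 108 and 96.0 CPM, and none of the 8 tested genes of receptor chaperones and steroid handling was over 2-fold apart. Hsp90aa1, one of these chaperones, had a log2 ratio of 0.37 in all members and -0.86 without other-cell barcodes.

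Upstream sequence is shown for the list members that were over 2-fold higher with and without other-cell barcodes and held letters of the receptor's binding motif before a start site. The sequences are RefSeq promoters of the mouse build GRCm38.p6, matched by symbol for 17 of the 20 tested genes, while the deposited identifiers are those of the rat. Searched were TGTTCT, a single arm of the site, and ACANNNTGT, the core of the palindromic site, on both strands and in the 250 bases before each start, with overlap of the motifs allowed. Each line gives 120 bases, 5′ to 3′ on the strand of the gene, and capitals mark the matched letters outside the spacer. Tsc22d3 is at chrX:140600628-140600747 (minus strand, before 1 of its 3 listed starts), Glul at chr1:153899809-153899928 (plus strand) and Sult1a1 at chr7:126676549-126676668 (minus strand).
Tsc22d3: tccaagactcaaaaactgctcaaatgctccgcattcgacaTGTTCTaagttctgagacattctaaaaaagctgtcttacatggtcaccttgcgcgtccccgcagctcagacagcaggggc
Glul: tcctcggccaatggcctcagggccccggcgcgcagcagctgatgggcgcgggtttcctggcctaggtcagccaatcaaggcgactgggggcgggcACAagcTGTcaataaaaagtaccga
Sult1a1: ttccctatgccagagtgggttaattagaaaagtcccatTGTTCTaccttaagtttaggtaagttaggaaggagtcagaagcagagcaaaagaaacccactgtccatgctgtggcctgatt
The 17 matched genes have 26 promoters in the table. The single arm was found in 5 of these 26 (19.2%), before 3 of the genes, and in 16.1% of all 32851 promoters of this length. The palindrome core was found in 4 of the 26 (15.4%), also before 3 genes, and in 5.84% of all promoters. The genes were Glul, Sgk1 and Mt1 for the core, and Tsc22d3, Sult1a1 and Sgk1 for the single arm. Sgk1 has several listed starts, and more than 1 of them held each motif, so these promoter shares count it repeatedly. Sgk1 was under 2-fold apart (log2 ratio 0.14, and -0.09 without other-cell barcodes), as was Mt1 (0.75 and 0.35). Fkbp5, Errfi1, Ddit4, Klf15 and Nfkbia, all over 2-fold higher, held neither run of letters in this window.

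**Figure D3:**
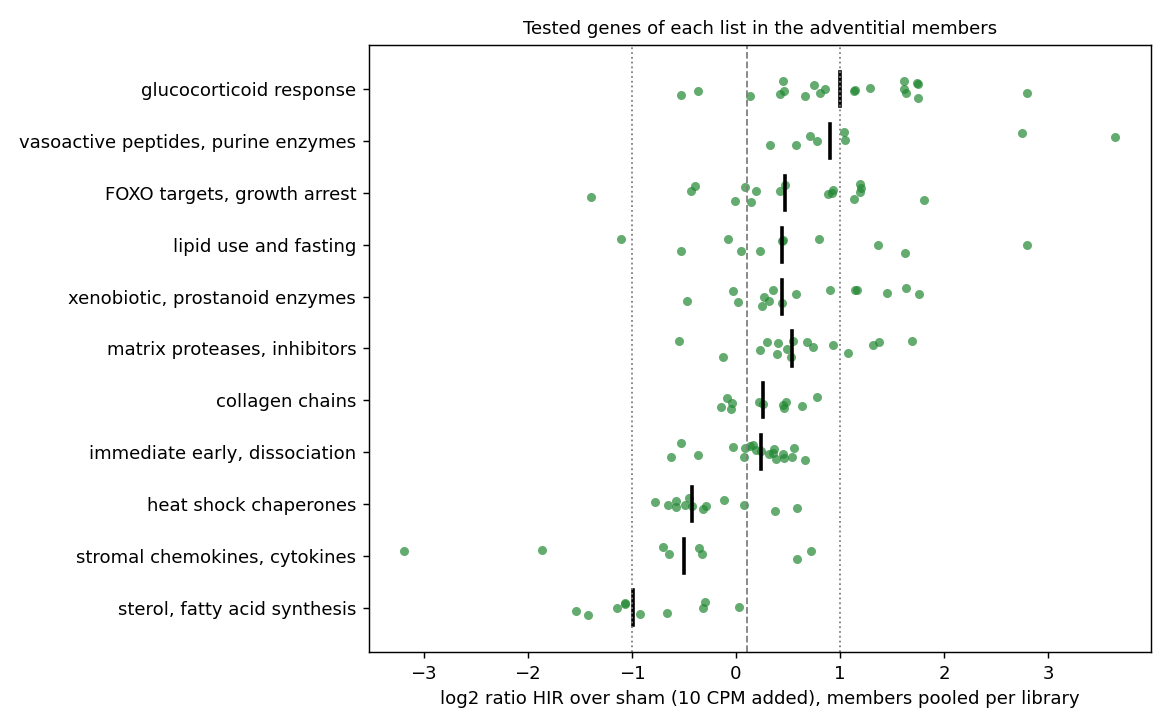
Log2 ratio of HIR over sham (10 CPM added) for each tested gene of 11 lists in the members; a black bar is the list's median, the dashed line the median of all tested genes and the dotted lines 2-fold. Glucocorticoid genes lie highest as a list, with a median of 1.0, and sterol and fatty acid genes lowest, with a median of -0.99.

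Genes in the list of vasoactive peptides and purine enzymes were higher. All 8 tested genes of this list were higher and 4 were over 2-fold higher, with a median log2 ratio of 0.91 (0.67 without other-cell barcodes). Over all tested genes 61.3% were higher and 3.72% over 2-fold higher. Penk, the precursor of the enkephalin opioid peptides, was at 48.2 CPM in sham and 380.2 CPM in HIR, 7.89-fold higher (6.22 to 10.1). Penk was detected in 23.9% of sham and 67.3% of HIR members, and in 11% and 48.6% after thinning to 2000 UMIs (227 and 109 members, 7 and 4 shallower ones left out). Barcodes with Ptprc had Penk in 0.490% and 0.639%. Gal, the precursor of galanin, was at 4.19 CPM in sham and 167 CPM in HIR, 39.9-fold higher (19.6 to 94.4). It was carried by few members: 14.2% of HIR members had a Gal UMI, against 2.56% in sham and 1.25% of HIR barcodes with Ptprc, and 1 member held 41.7% of the 127 HIR UMIs. When the rule sum had to be over 2 times each of the other sums, the log2 ratio of Gal was 0.58, against 3.64 in all members. Ramp2, a partner of the adrenomedullin receptor, was 2.12-fold higher (144 and 305 CPM) and Entpd1 2.46-fold higher (27.2 and 67.1 CPM). Both were under 2-fold apart without other-cell barcodes, with log2 ratios of 0.83 and 0.80, and TMM scaling also left 2 of the 8 genes over 2-fold higher. Ednra, the endothelin A receptor, was at 114 and 192 CPM. Xdh, xanthine oxidoreductase, the last enzyme of purine breakdown, is counted in the oxidative stress list and not in this one. It was at 47.1 CPM in sham and 326 CPM in HIR, 6.92-fold higher (5.42 to 8.91). Its thinned detection was 9.25% and 43.1% of members, but Xdh is also found in 22.5% and 38.4% of barcodes with Ptprc.

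Growth arrest and fasting-type genes were higher in part. In the FOXO and growth arrest list 13 of 17 tested genes were higher (61.3% of all tested genes), 5 over 2-fold, with a median of 0.47 (0.45 without other-cell barcodes). Txnip, the thioredoxin-binding protein that limits glucose uptake, was at 384 CPM in sham and 1367 CPM in HIR, 3.56-fold higher (3.23 to 3.91). Its per-cell median was 314 CPM in sham and 1288 CPM in HIR. Cdkn1b, a cyclin kinase inhibitor, was 2.43-fold higher, Ccng2 2.61-fold higher and Pik3ip1, a brake on PI3 kinase, 2.76-fold higher. Gadd45b was at 575 and 1105 CPM and Cdkn1c at 304 and 347 CPM, both under 2-fold apart, while Gas6, a ligand of TAM receptors, was at 898 and 662 CPM. Ccnd1, a cyclin, was 3.45-fold lower (68.1 and 19.7 CPM), but at 41.7 and 21.4 CPM without other-cell barcodes, under 2-fold.

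In the lipid list 8 of 11 were higher, beside 61.3% of all tested genes, with a median of 0.45 (0.35 without other-cell barcodes). This median was 0.09 with the rule applied after thinning and 0.10 with no filter on low values. The cholesterol exporter Abca1 was at 39.8 CPM in sham and 143 CPM in HIR, 3.60-fold higher (2.66 to 4.89). Acadl, a fatty acid dehydrogenase, stood at 76.5 and 141 CPM and Apoe at 1921 and 1986 CPM. Fabp5 was 2.89-fold lower, but its direction turned without other-cell barcodes (12.4 and 18.4 CPM). In the glycolysis and hypoxia list 3 genes were over 2-fold higher while the median was -0.03 (-0.11 without other-cell barcodes). These were Bnip3, a receptor for the removal of mitochondria (115 CPM in sham and 487 CPM in HIR, 4.24-fold higher (3.58 to 5.04)), Pfkfb3, a regulator of glycolysis (10.5 and 71.0 CPM), and Ndrg1 (53.9 and 139 CPM). The glycolytic enzyme Aldoa and the growth factor Vegfa differed little, at 327 and 268 CPM and 210.0 and 208 CPM, and Epas1, a hypoxia-inducible factor, changed sign between all members (178 and 139 CPM) and members without other-cell barcodes (53.5 and 91.8 CPM).

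Xenobiotic and prostanoid enzymes were higher in 13 of 15 tested genes, beside 61.3% of all tested genes. Over 2-fold higher were 5 (3.72% of all tested genes), and the median was 0.45 (0.32 without other-cell barcodes). Without these barcodes 10 of the 15 were higher, beside 49.1% of all tested genes, and 4 were over 2-fold higher. The flavin monooxygenases Fmo1 and Fmo2 stood at 35.1 and 142 CPM and 401 and 1110.2 CPM in sham and HIR. Their ratios were 4.05 and 2.77. Cyp1b1 was 2.39-fold higher (77 and 184 CPM) and Aldh2 at 407 and 414 CPM. Outside the lists, the glutathione transferase Gsta6 was at 58.7 CPM in sham and 224 CPM in HIR, 3.81-fold higher (2.99 to 4.88), and Cdo1, which breaks down cysteine, at 41.9 CPM in sham and 193 CPM in HIR, 4.62-fold higher (3.49 to 6.14). Vsir, the checkpoint ligand VISTA, was at 27.2 and 114 CPM, 4.2-fold higher. In the oxidative stress list 12 of 22 were higher and only Xdh was over 2-fold apart. Its most abundant members Gpx3 and Txn1 stood at 969.8 and 1535 CPM and 514 and 913 CPM, and Prdx1 at 548 and 425 CPM. Prdx6 was at 525 and 342 CPM, but its direction turned without other-cell barcodes (174 and 265 CPM).

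**Figure D4:**
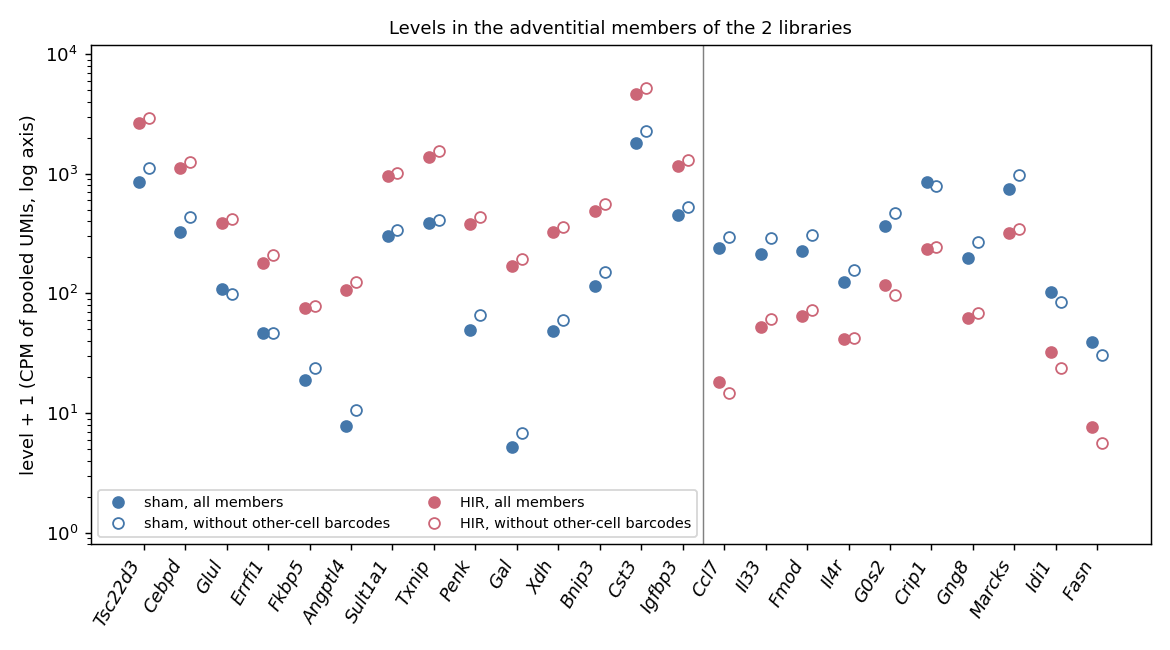
Level plus 1 (CPM of pooled UMIs, log axis) of 24 genes in sham and HIR members, for all members (filled) and without other-cell barcodes (open); genes left of the line are higher in HIR and those right of it lower. Gal, Angptl4 and Penk are the widest apart on the left and Ccl7 on the right, with and without other-cell barcodes.

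Genes of sterol and fatty acid synthesis were lower. Of 10 tested genes 9 were lower, 5 of them over 2-fold, with a median of -0.99 (-0.89 without other-cell barcodes). Over all tested genes 1895 of 4895 were lower, and 1.98% were over 2-fold lower. With the filter on low values applied again without other-cell barcodes, 2 of 8 genes were over 2-fold lower with a median of -0.65, and with means of CPM per cell 2 of 8 with a median of -0.80. Fasn, fatty acid synthase, was at 38.2 CPM in sham and 6.58 CPM in HIR, 5.81-fold lower (2.38 to 18.4). Idi1, an isomerase of the sterol pathway, was at 101 and 31.6 CPM, 3.20-fold lower, and Sqle, squalene epoxidase, at 38.2 and 11.8 CPM, 3.23-fold lower. Hmgcs1, the cytosolic HMG-CoA synthase, was 2.79-fold lower (44.0 and 15.8 CPM), and Acly, which supplies acetyl-CoA, 2.65-fold lower (52.4 and 19.7 CPM), though Acly was under 2-fold apart without other-cell barcodes (log2 ratio -0.79). Fdps differed little (120.4 and 94.7 CPM), as did Insig1, which holds back sterol sensing (93.7 and 96.0 CPM). Levels were low: the HIR members held 5 UMIs of Fasn, 9 of Sqle and 12 of Hmgcs1 in all.

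Chemokine and alarmin RNA was lower in part. In the stromal chemokine list 6 of 8 tested genes were lower with a median of -0.50 (-0.64 without other-cell barcodes), and 2 were over 2-fold lower. Over all tested genes 1895 of 4895 were lower, and 1.98% were over 2-fold lower. With no filter on low values 7 of 19 list genes were higher and the median was -0.17. Cxcl1, Cxcl13 and Csf1 were higher without other-cell barcodes, with log2 ratios of 0.45, 0.61 and 0.41. Ccl7, a monocyte-recruiting chemokine, was at 237 CPM in sham and 17.1 CPM in HIR, 13.8-fold lower (8.01 to 26.2). A Ccl7 UMI was found in 33.8% of sham and 6.19% of HIR members, and in 3.11% and 1.60% of barcodes with Ptprc. Il33 was at 213 CPM in sham and 51.3 CPM in HIR, 4.15-fold lower (2.99 to 5.93). It was detected in 47.4% of sham and 19.5% of HIR members (27.8% and 3.67% after thinning), beside 12% and 10.8% of barcodes with Ptprc. Ccl2, a neighbour of Ccl7 in function, was 1.69-fold lower (169 and 100.0 CPM), and Ackr3, a scavenging receptor of Cxcl12, was at 221 and 171 CPM. The share of Ccl11-led members, where Ccl2 is highest, was also lower in HIR, and its part in the Ccl2 difference was not tested. By subset, Ccl2 was at 129 and 75.5 CPM (sham and HIR) in Pi16-led members and 137 and 11.8 CPM in Sfrp2-led members. In Ccl11-led members it was at 323 and 292 CPM. Within Pi16-led members alone Ccl7 was at 125 and 16.3 CPM and Il33 at 277 and 61.2 CPM.

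Among receptors, Il4r, the receptor chain for interleukins 4 and 13, was at 123 CPM in sham and 40.8 CPM in HIR, 3.0-fold lower (2.06 to 4.52). Ifnar1, of the type I interferon receptor, was 3.20-fold higher (15.2 and 48.7 CPM), and the most abundant receptor of this list, Il11ra1, was at 407 and 396 CPM. Ifngr1 and Tnfrsf1a stood at 94.3 and 167 CPM and 67.0 and 103 CPM. The NF-kB list had 9 of 15 genes higher, a share near the 61.3% of all tested genes, with a median of 0.19 (0.22 without other-cell barcodes). Vcam1, an adhesion molecule for leukocytes, was at 195 and 90.8 CPM, 2.15-fold lower, while Sod2 was at 102 and 196 CPM in all members and 67.4 and 71.9 CPM without other-cell barcodes. No tested gene of the interferon response list was over 2-fold apart (2 of 5 higher). In the complement list 9 of 14 were higher, also near the share over all tested genes. C1r and Serping1 stood at 481 and 651 CPM and 538 and 717 CPM, and thrombomodulin (Thbd) at 622 and 399.9 CPM. Cfd was 2.91-fold lower in all members and at 9.52 and 13.8 CPM without other-cell barcodes.

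Collagen chains, the main product of these cells, were under 2-fold apart between the libraries. Of 11 tested chains 7 were higher and none was over 2-fold apart, with a median of 0.26 (0.07 without other-cell barcodes). Col1a1 was at 16763 and 15142 CPM, Col3a1 at 18255 and 17755 CPM, Col6a2 at 792 and 1106 CPM and Col15a1 at 217 and 299.9 CPM. Without other-cell barcodes the 2 most abundant of these were lower in HIR by more. Col1a1 was then at 22646 and 17325 CPM, and Col3a1 had a log2 ratio of -0.28. The listed chains summed to 36735 and 35258 CPM in all members, and to 49525 and 40300 CPM without other-cell barcodes. Dcn (decorin) stood at 3995 and 4686 CPM and Dpt (dermatopontin) at 2138 and 2047 CPM. Their log2 ratios without other-cell barcodes were -0.0005 and -0.32. Gsn, the actin-severing protein gelsolin and the most abundant of the universal fibroblast genes, was at 17441 CPM in sham and 26788 CPM in HIR, 1.54-fold higher (1.51 to 1.56). Without other-cell barcodes this difference was smaller, with a log2 ratio of 0.37. Mfap5, a microfibril protein, was at 1836 and 1947 CPM, and Fbln2 (fibulin 2) was 2.44-fold higher (51.8 and 126 CPM) but under 2-fold apart without other-cell barcodes (log2 ratio 0.95).

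Some low-abundance matrix genes differed more. Fmod, the collagen-binding proteoglycan fibromodulin, was at 224 CPM in sham and 63.1 CPM in HIR, 3.54-fold lower (2.62 to 4.88). Postn (periostin) was at 15.2 CPM in sham and 84.2 CPM in HIR, 5.54-fold higher (3.52 to 8.92), and in the other direction Thbs2 (thrombospondin 2) was at 44.5 and 10.5 CPM and Ccn5, a matricellular protein, at 53.9 and 9.21 CPM. The HIR members held 8 UMIs of Thbs2 and 7 of Ccn5. Ltbp2 was 3.69-fold higher (25.7 and 94.7 CPM). In elastic fibre genes 11 of 17 were higher, near the 61.3% of all tested genes, and 8 of 17 without other-cell barcodes. Elastin (Eln) stood at 1810.3 and 2503 CPM, the crosslinking enzyme Lox at 379 and 724 CPM and Ltbp4 at 683 and 833 CPM. Emilin1, at 64.4 and 31.6 CPM, was over 2-fold lower only without other-cell barcodes (log2 ratio -1.10). Fn1 (fibronectin) and Sparcl1 were at 459.8 and 554 CPM and 1056 and 1251 CPM, and the proteoglycans Bgn and Prelp at 843 and 823 CPM and 374 and 397 CPM.

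Proteases and inhibitors were higher in 14 of 16 tested genes, beside 61.3% of all tested genes, and 4 were over 2-fold higher, with a median of 0.54 (0.32 without other-cell barcodes). Mmp14, a membrane-bound collagenase, was at 36.1 CPM in sham and 139 CPM in HIR, 3.86-fold higher (2.82 to 5.30). Cst3 (cystatin C, an inhibitor of cysteine proteases) was at 1797 CPM in sham and 4665 CPM in HIR, 2.60-fold higher (2.48 to 2.72). Without other-cell barcodes its difference was smaller, with a log2 ratio of 1.20. Serpine2, an inhibitor of serine proteases, was 2.74-fold higher (17.3 and 47.4 CPM). Mmp2 and Timp2, with 596 and 842 CPM and 1040.0 and 1679.8 CPM, were higher by less than 2-fold. Among collagen folding and processing enzymes 10 of 22 were higher and none was over 2-fold apart.

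Growth factor, IGF and Wnt genes differed in both directions. Igfbp3, an IGF carrier, was at 452 CPM in sham and 1169 CPM in HIR, 2.59-fold higher (2.35 to 2.85), while Igfbp4 was at 612 and 349 CPM. The IGF carriers Igfbp6 and Igfbp7 stood at 645 and 1166 CPM and 4271 and 4963 CPM. Stc2 (stanniocalcin 2) was 6.42-fold higher (9.43 and 60.5 CPM). Igfbp2 had 147 UMIs in sham and 0 in HIR members, and 0.732 CPM in sham without other-cell barcodes. In the Wnt list 9 of 18 were higher, beside 61.3% of all tested genes. Sfrp1 was 2.97-fold higher (88.5 and 263 CPM) and Notum 4.51-fold higher (17.8 and 80.2 CPM). Wif1 stood at 164 and 279 CPM, Dkk3 at 53.4 and 109 CPM and Tcf7l2 at 52.9 and 97.3 CPM. Hgf, an epithelial growth factor, was 3.92-fold higher (17.8 and 69.7 CPM), and the receptor Pdgfrb 2.33-fold higher (64.9 and 151 CPM), though under 2-fold apart without other-cell barcodes (log2 ratio 0.89). Ptn and Mdk, heparin-binding growth factors, were at 528 and 552 CPM and 260.3 and 237 CPM. In BMP and TGF-beta signalling 8 of 21 were higher, beside 61.3% of all tested genes. Bmp4 stood at 323 and 213 CPM, Id3 at 884 and 885 CPM, Fstl1 at 475 and 599 CPM and the TGF-beta target Pmepa1 at 217 and 114 CPM.

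Aldh1a2, an enzyme of retinoic acid synthesis, was at 140.3 CPM in sham and 49.99 CPM in HIR, 2.81-fold lower (1.99 to 4.05), while the retinol carrier Rbp4 was at 1221 and 789 CPM and the hedgehog receptor Ptch1 at 113 and 203 CPM. In retinoid, hedgehog and Notch genes together 9 of 16 were higher. Heat shock chaperones were lower in 10 of 13 tested genes, beside 1895 of 4895 over all tested genes. None was over 2-fold lower (1, Hspb1, without other-cell barcodes), and the median was -0.42 (-0.44 without other-cell barcodes). Hspb1 stood at 1541 and 895 CPM, Hspa8 at 746 and 497 CPM, Hsp90ab1 at 1035 and 827 CPM and Hspa1b at 562 and 595 CPM. Contractile and mechanical response genes were lower in 13 of 16, beside 1895 of 4895 over all tested genes. None was over 2-fold lower (2 without other-cell barcodes), and the median was -0.40 (-0.47 without other-cell barcodes). Beta actin (Actb) was at 771 and 434 CPM, Tagln at 191 and 103 CPM and Ccn1 at 509.5 and 442 CPM, and Cald1 in the other direction at 112 and 218 CPM. Genes that tissue dissociation induces were higher in 15 of 19, beside 61.3% of all tested genes, and none was over 2-fold apart. Their median was 0.24, and 0.17 without other-cell barcodes, where 15 were again higher, beside 49.1% of all tested genes. Of the same 19 genes, 16 were higher in the alveolar class and 19 in the Wnt11 class. Fos was at 1501 and 1871 CPM, Jun at 1268 and 1638 CPM and Jund at 1098 and 1229 CPM. The clock genes Nr1d1, Nr1d2, Per3 and Dbp stood at 153 and 271 CPM, 81.2 and 132 CPM, 196 and 259 CPM and 501 and 392 CPM. In the unfolded protein list 9 of 19 were higher and none was over 2-fold apart.

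Several of the lowest genes by the naming rule belong to no list. G0s2, an inhibitor of the lipase that empties fat droplets, was at 362 CPM in sham and 117 CPM in HIR, 3.09-fold lower (2.48 to 3.90). Crip1, a small LIM domain protein, was at 847 CPM in sham and 234 CPM in HIR, 3.62-fold lower (3.10 to 4.25), and Gng8, a G protein subunit, at 196 CPM in sham and 61.8 CPM in HIR, 3.18-fold lower (2.34 to 4.40). Without other-cell barcodes the 15 lowest genes by the naming rule shared 6 with those of all members. They added Igsf10 (164 and 44.4 CPM in sham and HIR), the guidance ligand Slit2 (104 and 26.0 CPM), Pola2 of DNA polymerase alpha (692 and 217 CPM) and Marcks, a substrate of protein kinase C (975 and 341 CPM). Also added were the LIM protein Fhl1 (1207 and 451 CPM), the neurturin receptor Gfra2 (119 and 41.3 CPM), Kazald1 (135 and 44.4 CPM), Nkain4 (300.2 and 107 CPM) and Aldh1a2. On the higher side 11 of 15 were shared, and Csrp2, another LIM protein, was added (40.3 and 179 CPM).

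Other genes that the rule named were carried by other-cell barcodes. Retnlg, a neutrophil gene, was at 0 and 135 CPM in all members and 0 and 3.06 CPM without them, and Cyp2a1 at 33 and 193 CPM and 0 in both libraries. On the lower side, Sec14l4 (314 and 6.58 CPM), Chia (176 and 9.21 CPM), Sftpd (499.6 and 76.3 CPM), Cxcl3 (162 and 21.0 CPM), Clic3 (114 and 19.7 CPM), Wfdc2 (1072 and 339 CPM) and Alas1 (156 and 52.6 CPM) were under 2-fold apart without them. Aldh1a1 (232 and 59.2 CPM) stayed over 2-fold lower at 22.7 and 3.06 CPM.

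Many differences between libraries were shared with the other stromal classes. The median of the glucocorticoid list over the same tested genes was 1.08 in the alveolar class and 0.86 in the Wnt11 class. Differences of log2 ratios between classes, taken without the added 10 CPM, carry counting intervals and were not tested over animals. For Tsc22d3 the members' ratio was above that of the alveolar class by 0.29 (0.17 to 0.41), and for Glul by 1.0 (0.63 to 1.37). For Cebpd, higher in both classes, the difference was -0.52 (-0.71 to -0.32). Penk had log2 ratios of 2.57 in members (here and in this paragraph without other-cell barcodes), 3.70 in the alveolar class and 0.44 in the Wnt11 class, where it was at 4.31 and 9.40 CPM. Gal was higher in all 3, with log2 ratios of 3.69, 2.91 and 3.91. The sterol list had medians of -0.85 in the alveolar and -0.02 in the Wnt11 class.

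Several named genes were lower in the members' comparison by more than in either class, by counting error, among them Il33, Ccl7, Il4r, Fmod, Ccn5, Aldh1a2, Marcks and Fhl1. The classes were not cleaned alike, since no barcode was left out of the Wnt11 class. There the epithelial genes Sftpd and Wfdc2 had log2 ratios of -1.53 and -1.41. Il33 had a log2 ratio of -2.11 in members, 0.05 in the alveolar class (51.3 and 53.4 CPM) and -0.04 in the Wnt11 class. The difference was -2.34 (-2.99 to -1.69) from the alveolar and -2.17 (-3.33 to -1.01) from the Wnt11 class. For Ccl7 the 2 differences were -3.30 (-4.34 to -2.27) and -4.50 (-5.73 to -3.28) respectively. For Il4r they were -1.70 (-2.52 to -0.88) and -2.25 (-3.00 to -1.49). For Fmod they were -1.54 (-2.04 to -1.05) and -3.04 (-3.83 to -2.25). Postn had log2 ratios of 1.79 in members, -0.95 in the alveolar class and -0.03 in the Wnt11 class. Entpd1 was at log2 ratios of 0.80, -0.42 and -0.41. Marcks and Fhl1 were also lower in the alveolar class, with log2 ratios of -0.98 and -1.06 there and -0.13 and 0.05 in the Wnt11 class. Their differences from the alveolar class were smaller, -0.53 (-0.76 to -0.30) and -0.36 (-0.55 to -0.17). For G0s2, at -2.07 in the alveolar class, the interval of this difference holds 0.

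**Figure D5:**
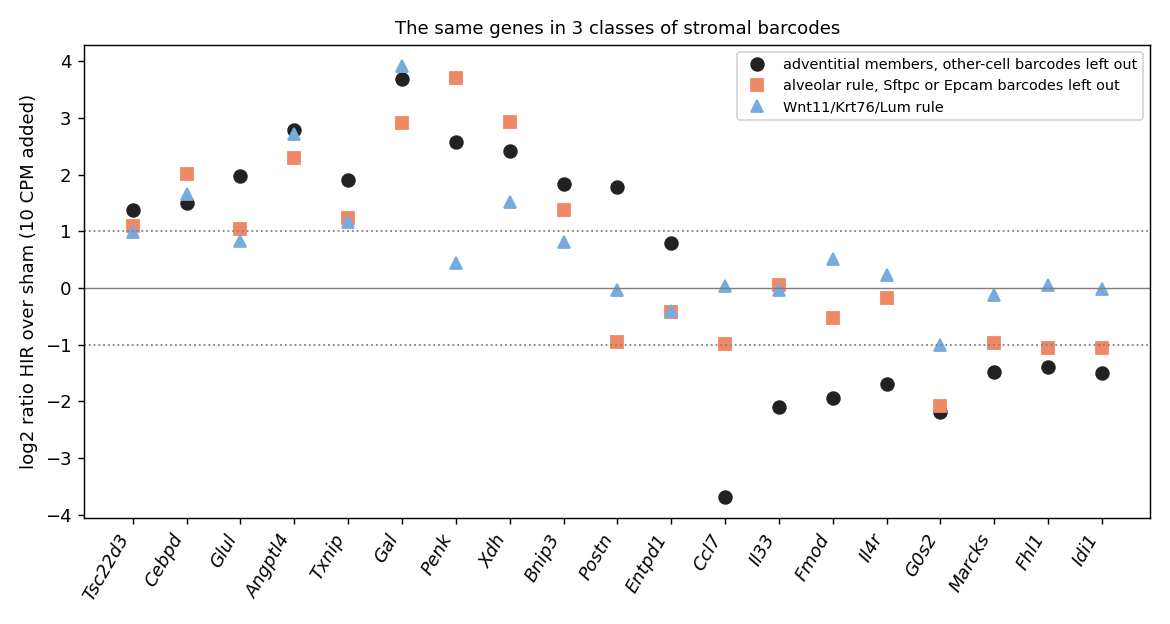
Log2 ratio of HIR over sham (10 CPM added) of 19 genes in the members without other-cell barcodes, in the alveolar class without pneumocyte barcodes and in the Wnt11, Krt76 and Lum class; dotted lines mark 2-fold. Ccl7, Il33, Fmod, Il4r and Marcks are below -1 in the members alone of the 3 classes. Ccl7 and Marcks are close to -1 in the alveolar class (-0.99 and -0.98). Gal is above 2 in all 3.

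Since the share of Pi16-led members differed between libraries, the comparison was repeated within them. In Pi16-led members without other-cell barcodes the glucocorticoid list had a median of 1.22, with 17 of 19 genes higher, and the sterol list -1.03. Of the 15 highest and 15 lowest genes named without other-cell barcodes, 15 and 14 were over 2-fold apart the same way there. Tsc22d3 had log2 ratios of 1.38 in Pi16-led, 0.64 in Sfrp2-led and 1.60 in Ccl11-led members. Penk had 2.28, 3.52 and 2.96, and Il33 -2.01, -1.65 and -2.64. Crip1 went in different directions, from 1014 to 189.8 CPM in Pi16-led and from 353 to 836 CPM in Ccl11-led members. Postn, at 3 and 0 UMIs in Sfrp2-led members, was higher in Pi16-led (17.5 and 75.5 CPM) and Ccl11-led members (40.8 and 358 CPM). The Sfrp2-led and Ccl11-led subsets hold few HIR cells, so their ratios rest on few UMIs.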

How the data were processed

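Lung cells of 1 sham and 1 HIR library were measured with 10x Genomics droplets. The deposited matrices hold whole UMI counts per gene and barcode, not normalized; Cell Ranger 6.0, STAR, Seurat 4.0 and mm10 are named in the submitters' processing notes, and cellranger 5.0.0 stands in the matrix headers, so per the file headers another version was used. The tables list 32883 features with rat identifiers. The sham library held 59566745 UMIs over 10719 barcodes and the HIR library 50801778 over 9499.

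Members were found by the rule, UMIs were summed per gene over members and given as CPM, and ratios carry exact conditional 95% intervals from the counts (Python 3.11.15, scipy 1.17.1). Shares carry exact Clopper-Pearson intervals. Intervals cover counting error only, and nothing is known of the spread between animals. Scrublet (scanpy 1.11.5) marked doublets at 0.8% per 1000 barcodes (919 and 722 called, 13 and 7 of them members) and kept. TMM factors came from edgeR 4.0.16 in R 4.3.3. The ratio and share code was tested on simulated data.

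Named genes are tested list members beyond 2-fold or among the 4 highest levels of a list, and the 10 genes with the largest level over both other classes. Also named are the 15 highest and 15 lowest log2 ratios among tested genes with at least 100 CPM in either library, an interval leaving out 1 and at least 0.25 of the level over all kept barcodes. Mitochondrial, ribosomal, hemoglobin, immune receptor, sex-linked and predicted genes and other-cell markers stay out of the latter. Genes named outside these rules, such as those below both classes or marking a subset, were chosen after their values were seen. Of 865 genes in 44 lists 23 were not in the feature table. The members and lists were chosen with earlier results of these data known. The group of other-cell barcodes and the Pi16-led comparison were added after seeing the data. Some list genes are not reported here.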

Additional observations from a re-analysis of the deposited data

Results flagged for a closer look

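Cd74 and RT1-Db1 (a rat class II chain), genes of MHC class II presentation, were over 2-fold apart in opposite directions between the members and the alveolar class. Cd74 had a log2 ratio of 1.34 in members without other-cell barcodes and -1.90 in the alveolar class, and RT1-Db1 1.31 and -2.10. The difference was not tested, since each value comes from 1 library per group. The levels without other-cell barcodes were 59.3 and 165 CPM for Cd74 in sham and HIR members. With those barcodes included, 1 HIR member held 58.6% of the HIR UMIs of Cd74. For RT1-Db1 they were 13.2 and 47.4 CPM, with 38.7% of the 31 HIR UMIs in 1 member. Both genes are abundant in antigen-presenting leukocytes, where Cd74 was detected in 56.9% of sham and 44.8% of HIR barcodes with Ptprc. The part of leukocyte RNA in this result was not tested.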

How the results depend on the processing

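No paired analysis was possible because each group is 1 library. Of 542 alternative values under 12 planned and 2 added alternatives, 501 stayed within the set limits, 34 moved and 7 reversed; 126 of 129 list medians stayed. The added ones (without other-cell barcodes, and Pi16-led members only) were chosen after seeing the data. The share ratio of 0.530 was 0.413 after thinning and 0.416 where the rule sum had to be over 2 times each other sum. Genes over 2-fold higher numbered 296 with 1 CPM added and 53 at a mean of at least 100 CPM, against 182. Genes over 2-fold lower numbered 148 and 25 under these settings and 176 with no filter on low values, against 97. The median of the vasoactive list was 0.35 with no filter, against 0.91, and that of the matrix proteases, with the filter applied again, 0.24 without other-cell barcodes and 0.22 in Pi16-led members, against 0.54. The sign of the log2 ratio turned for Sec14l4 (0.20 after thinning, 0.0083 without other-cell barcodes), Chia (0.27 after thinning, 0.21 without other-cell barcodes, 0.27 in Pi16-led members) and Cxcl3 (0.59 without other-cell barcodes, 0.52 in Pi16-led members). Fewer genes enter the test at 100 CPM and more with no filter; for the other settings the cause was not tested. List medians with too few tested genes at 100 CPM were not computed. With 1 library per group, no replicate could be left out. Genes with few UMIs are limited by depth.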
